A study of Homo sapiens with 3 samples.

Results

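The genes described here are 37 genes of amino acid synthesis and of the ATF4 stress response, chosen by name and found once each among the 58037 genes counted in A375 melanoma cells. They were taken in 3 sets, the serine and one-carbon enzymes, the enzymes of asparagine and proline synthesis, and the stress regulators with their other targets. Of the 37 members, 36 passed a minimum mean of 20 normalised counts over the 3 libraries, and FGF21 did not.

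A375 is an established human melanoma cell line. Its poly(A) RNA was sequenced after 24 h in serum-free DMEM (control), in the secretome of young adipocytes (YA-A375) or in the secretome of old adipocytes (OA-A375), with 1 library in each group. A secretome was serum-free DMEM that had been kept on human adipocytes differentiated in culture, so the 3 groups shared the basal medium and the lack of serum. What the adipocytes released, what they took out of the medium and how the medium aged on them cannot be told apart in this design.

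ATF4 is a transcription factor whose messenger RNA is translated more efficiently when the initiation factor eIF2 is phosphorylated, by kinases that sense missing amino acids, unfolded protein, viral RNA or heme deficiency. It binds, usually as a dimer with a C/EBP protein, to response elements of genes for amino acid synthesis, amino acid uptake, transfer RNA charging and feedback on the pathway itself. Tumour cells, melanoma among them, are known to use this program when nutrients run short.

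The libraries held 18089008 to 21448195 counts, and each value below is a normalised count unless another scale is named. Since every group was a single library, no difference could be checked against replicates and no test of conditions was made. The range in brackets after a fold is a 95% interval that covers counting error only, and a fold of 1.2 was taken as the limit for calling a gene higher or lower. Of 7 melanocyte lineage markers, SOX10, TYR and DCT had 0 to 2 counts in each library, PMEL 2 to 10 and MLANA 16 to 22. S100B (843, 591 and 550 counts in control, YA-A375 and OA-A375) and MITF (1221, 764 and 881) were present, and both were lower in YA-A375, with log2 fold changes of -0.51 and -0.67. In OA-A375 S100B was lower as well, at -0.36. MITF lay within 1.2-fold there, with a ratio to control of 0.860 (0.787 to 0.938).

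Markers of other cell types moved as well. The summed normalised count of the 10 adipocyte markers was 736 in control, 1338 in YA-A375 and 548 in OA-A375. LEP and CIDEA had 0 counts, ADIPOQ 0 to 1, PLIN1 2 to 5 and FABP4 16, 15 and 2, and none of these was tested. All 5 adipocyte markers tested were at least 1.2-fold higher in YA-A375, where 17.4% of all genes were. Their log2 fold changes were 1.03 for PLIN4, 0.73 for LPL, 0.95 for LIPE, 2.19 for CIDEC and 0.32 for GPD1. The interval of the GPD1 ratio (0.811 to 1.95) took in 1. CIDEC, with 6, 31 and 36 counts, had to differ from control to pass the minimum. In OA-A375 CIDEC and PLIN4 were higher, at 2.64 and 0.43, and LPL lower, at -3.27. The 10 fibroblast markers summed to 831, 1042 and 679. DPT had 0 counts and COL1A2 and COL3A1 had 2 or fewer, but of the 6 tested 3 were higher in YA-A375 and 1 was lower. DCN, with 13, 138 and 24 counts, had a log2 fold change of 3.31, COL1A1 had 0.64 and LUM 0.61, and PDGFRA had -1.87. The control value of DCN, at 12.2 normalised counts, lay under the minimum, so DCN had to differ from control to pass it. In OA-A375 2 were higher and 3 lower, beside 21.1% and 21.5% of all genes. DCN (1.08) and COL1A1 (0.41) were the higher ones, and FBLN1 (-1.21), PDGFRB (-0.37) and PDGFRA (-0.32) the lower. The intervals of the OA-A375 ratios of COL1A1 (0.966 to 1.85) and PDGFRA (0.549 to 1.15) took in 1. Mitochondrially encoded genes took 1.51%, 2.47% and 1.59% of counts. Both marker sums and the mitochondrial share were highest in YA-A375, as most members were, and their part in the results was not tested. In bulk RNA, fewer cells of a kind and less RNA per cell cannot be told apart.

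The first comparison asked how the members stood in YA-A375 against control. Of the 36 members tested, 33 were at least 1.2-fold higher in YA-A375, where 17.4% of the 14413 genes tested were, and 0 were at least 1.2-fold lower, where 16.4% of all genes were. The median log2 fold change of the members was 0.80, beside -0.02 for all genes tested. At least 2-fold higher were 15 members, against 2.15% of all genes. The 3 members within 1.2-fold were ALDH18A1, ATF5 and CCPG1. INHBE passed the minimum only through its YA-A375 value, and the control value of NUPR1 lay under it, so both had to differ from control to pass it. Without them 31 of 34 members were higher, 13 of them at least 2-fold, with a median of 0.75. Together the 37 members took 0.277% of all counts in control (95% Wilson interval 0.274 to 0.279), 0.443% in YA-A375 (0.441 to 0.446) and 0.333% in OA-A375 (0.330 to 0.336).

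In OA-A375 against control, 22 of the 36 members were at least 1.2-fold higher, where 21.1% of all genes were. The 3 that were lower were ATF3, CBS and PPP1R15A, where 21.5% of all genes were lower. The median log2 fold change was 0.35, beside 0.01 for all genes. At least 2-fold higher were ASNS, NUPR1 and GDF15, which is 3 members against 2.86% of all genes. Without INHBE and NUPR1, 21 of 34 members were at least 1.2-fold higher, 3 were lower and 2 were at least 2-fold higher. Both comparisons used the same control library, so a high or low value there would shift them together.

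**Figure D1:**
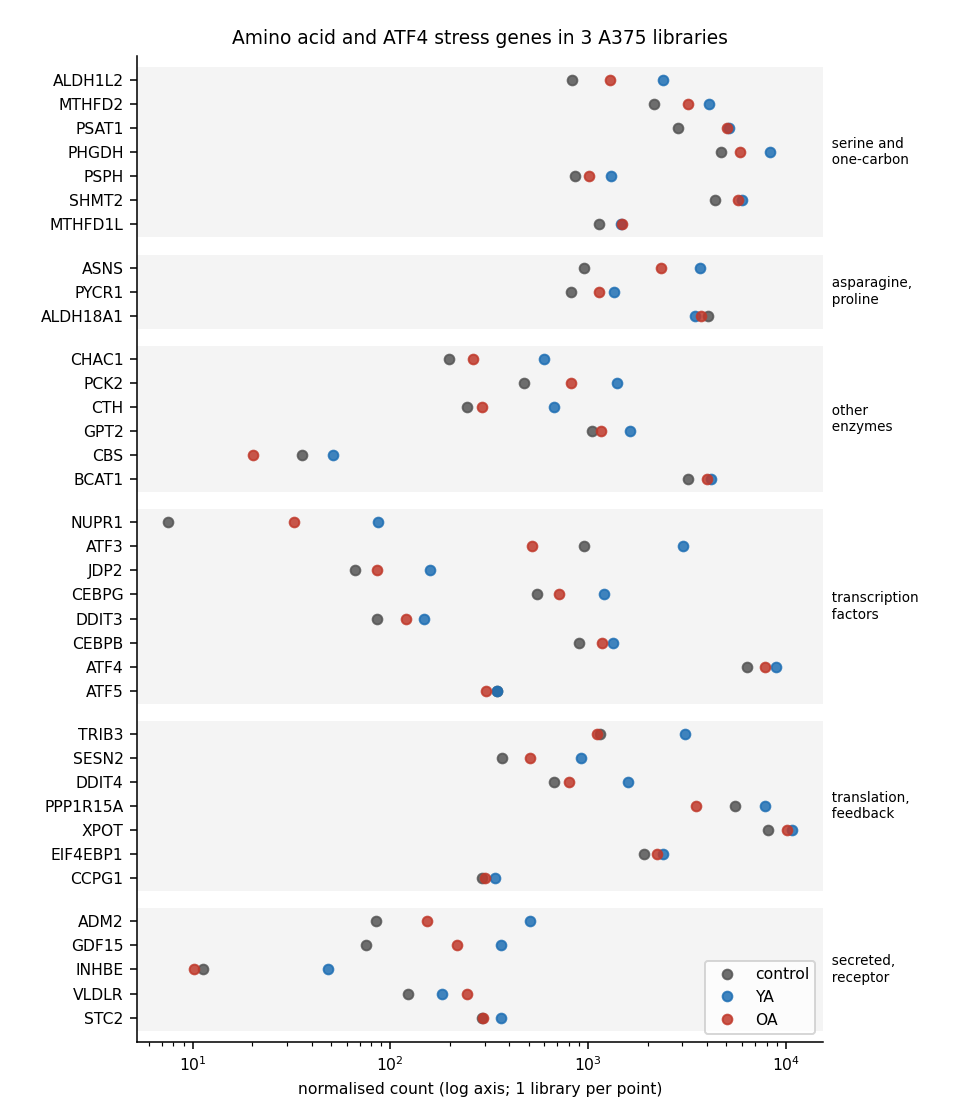
Normalised counts (log axis) of the 36 members that passed the minimum mean of 20, by role, with 1 point for each of the control, YA-A375 and OA-A375 libraries. In 27 of the 36 rows the order from low to high is control, OA, YA, and ATF3 and PPP1R15A have the OA point clearly left of the control point.

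The sequence that ATF4 and C/EBP proteins are known to bind was looked for in the promoters of the members. The core searched was TGATGNAA, on both strands, in RefSeq windows from 250 bases before to 50 bases after each annotated start on GRCh38.p14. Of the members, 29 matched, with 50 windows. No window was matched for INHBE, NUPR1, SHMT2, PSPH, EIF4EBP1, PYCR1, GPT2 and ALDH1L2. The core was present in 8 of the 29 members, ASNS, ATF3, BCAT1, CEBPG, CHAC1, FGF21, JDP2 and MTHFD1L, while 4.46% of 27305 genes with a window held it. By window it was in 10 of 50 member windows, of which 3 were overlapping windows of MTHFD1L that share 1 site, and in 3.62% of all 35116 windows. A match is a match of letters and not a site shown to be bound. The members were chosen by name as genes of the ATF4 response, so a high share among them comes with the choice. It rests on reference sequence alone and says nothing about the 3 libraries.

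The stretches below are shown because they hold the core in capitals beside its flanks. They are printed 5′ to 3′ in the orientation of the gene, and positions count back from -1, the base before the start. They are 28 bases long where another annotated exon of the same gene lies close by, and up to 80 bases long otherwise. In CHAC1 and FGF21 the core lies on the other strand, so the capitals are its reverse complement.
ASNS: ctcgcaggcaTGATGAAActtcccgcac
CHAC1: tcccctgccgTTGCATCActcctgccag
ATF3: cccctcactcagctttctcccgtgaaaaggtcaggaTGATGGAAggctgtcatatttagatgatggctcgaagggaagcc
CEBPG: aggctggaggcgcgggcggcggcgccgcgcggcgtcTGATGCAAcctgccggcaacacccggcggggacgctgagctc
JDP2: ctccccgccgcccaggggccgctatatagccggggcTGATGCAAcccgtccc
BCAT1: gtcttcctgcTGATGCAAtccgctaggt
FGF21: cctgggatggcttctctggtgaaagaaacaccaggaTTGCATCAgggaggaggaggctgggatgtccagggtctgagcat
The stretches lie at chr7:97872459-97872486 on the minus strand for ASNS, at chr15:40953252-40953279 on the plus strand for CHAC1 and at chr1:212565180-212565259 on the plus strand for ATF3. Those of CEBPG, JDP2 and FGF21 lie on the plus strand at chr19:33374035-33374112, chr14:75427970-75428021 and chr19:48755434-48755513, and that of BCAT1 on the minus strand at chr12:24949132-24949159. The core starts at -68 in ASNS, -209 in CHAC1, -191 in ATF3, -42 in CEBPG, -16 in JDP2, -48 in BCAT1 and -54 in FGF21.

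**Figure D2:**
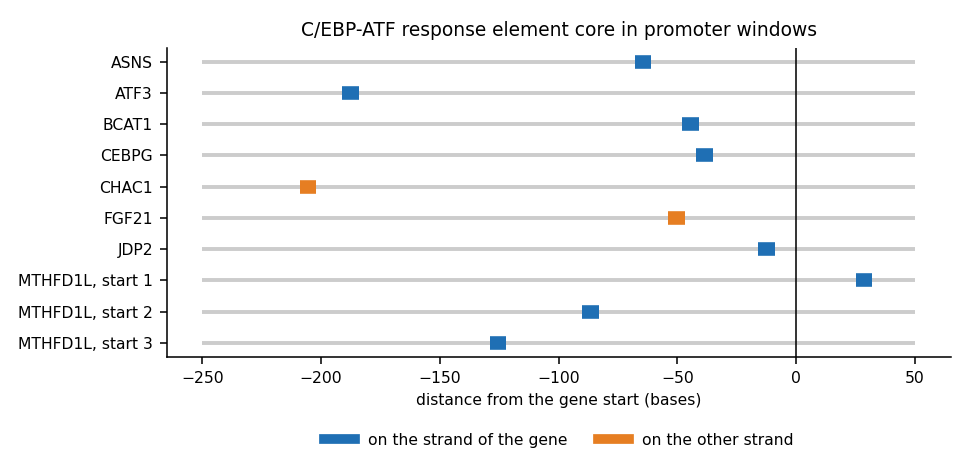
Position of the TGATGNAA core in the promoter windows of the 8 members that hold it. The x axis is the distance in bases from the annotated start, each grey line is 1 window from 250 bases before to 50 bases after it, and colour gives the strand of the core. BCAT1, CEBPG, FGF21, ASNS and JDP2 hold it within 68 bases before the start, and the 3 MTHFD1L rows show the same site seen from 3 starts.

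Holding the core did not go with 1 size of change. Of the holders, ASNS, ATF3, CHAC1, JDP2 and CEBPG had log2 fold changes of 1.95, 1.67, 1.58, 1.25 and 1.14 in YA-A375. BCAT1 and MTHFD1L, with the same core, had 0.38 and 0.37. Members whose windows lacked it, such as GDF15 (2.24) and TRIB3 (1.41), were also high. The cAMP response element TGACGTCA, searched on both strands in the same windows, was present in 1 member, PPP1R15A. It was in 2% of member windows and 1.85% of all windows. The E-box CACGTG was present in ALDH18A1, ATF4, BCAT1 and MTHFD1L, in 14% of member windows and 7.26% of all windows. That share counts overlapping windows of ATF4 and of MTHFD1L. By gene the E-box was in 4 of 29 members and in 8.77% of all genes with a window.

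The serine and one-carbon enzymes were higher in YA-A375 in all 7 cases, where 17.4% of all genes were, with a median log2 fold change of 0.82. In OA-A375 6 of 7 were higher, where 21.1% of all genes were, with a median of 0.38. PSPH was the one within 1.2-fold in OA-A375. Serine is made from a glycolysis intermediate by PHGDH, PSAT1 and PSPH in turn. PHGDH, the first enzyme, stood at 4678 in control, 8289 in YA-A375 and 5893 in OA-A375. It was 1.77-fold higher in YA-A375 (1.71 to 1.83) and 1.26-fold higher in OA-A375 (1.21 to 1.31). PSAT1, the aminotransferase of the second step, stood at 2862, 5151 and 5022. Both secretome libraries lay above control for PSAT1, and the interval of their ratio of 1.03 (0.986 to 1.07) took in 1. PSPH, the phosphatase of the last step, stood at 856, 1308 and 1009, which is 1.53-fold higher in YA-A375 (1.41 to 1.66) and 1.18-fold higher in OA-A375 (1.07 to 1.29).

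The step between PHGDH and PSPH thus had nearly equal levels under both secretomes, while the enzymes before and after it were 1.41-fold and 1.30-fold higher in YA-A375 than in OA-A375. Per exonic length, in TPM (counts scaled to exonic length and to the library), PSAT1 was the most abundant of the 3 in every library, with 269, 476 and 466 TPM, against 104, 182 and 129.9 TPM for PHGDH and 63.6, 95.7 and 74.3 TPM for PSPH.

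The mitochondrial folate enzymes pass the carbon taken from serine on to formate. SHMT2, which splits serine into glycine and a one-carbon unit, stood at 4375, 6003 and 5699. MTHFD2, which oxidises that unit, stood at 2163, 4068 and 3187. MTHFD1L, which releases it as formate, stood at 1133, 1466 and 1476. SHMT2 and MTHFD1L were therefore close under both secretomes, with YA-A375 over OA-A375 ratios of 1.05 (1.02 to 1.09) and 0.993 (0.922 to 1.07), and MTHFD2 was 1.28-fold higher in YA-A375. MTHFD2 shares 27.2% of its exonic bases with SLC4A5 on the opposite strand, which had 2 to 7 counts. ALDH1L2, which burns the unit to carbon dioxide and makes NADPH, stood apart within the set. Its level was 830.2 in control, 2384 in YA-A375 and 1289 in OA-A375. It was 2.87-fold higher in YA-A375 (2.66 to 3.10), the highest fold of the 7, and 1.55-fold higher in OA-A375 (1.42 to 1.70).

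The related genes outside the set did not share this. Of 16 other one-carbon, folate and glycine genes tested, 0 were higher in YA-A375 and 1 was lower, with a median log2 fold change of -0.05. In OA-A375, 2 were higher and 4 lower. Among all genes, 17.4% were higher and 16.4% lower in YA-A375, and 21.1% and 21.5% in OA-A375. The lower gene in YA-A375 was GLDC, the decarboxylase of the glycine cleavage system. It had 293 normalised counts in control, 108 in YA-A375 and 116 in OA-A375, a log2 fold change of -1.44 and -1.33. The cytosolic paralogue of SHMT2, SHMT1, had 2053, 2060 and 1532 counts, which is a log2 fold change of 0.01 in YA-A375.

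ASNS makes asparagine from aspartate and glutamine and is a textbook ATF4 target. It stood at 949.8 in control, 3668 in YA-A375 and 2342 in OA-A375. It was 3.86-fold higher in YA-A375 (3.60 to 4.14), 2.47-fold higher in OA-A375 (2.29 to 2.66) and 1.57-fold higher in YA-A375 than in OA-A375 (1.48 to 1.65). The 3 libraries were thus separated from each other by more than counting error, in the order control, OA-A375, YA-A375. The ASNS gene spans chr7:97852118-97872542 on GRCh38, and 44.6% of its exonic bases are shared with the transcript AC079781.5 on the same strand in GENCODE release 29. AC079781.5 is not among the genes in the deposited counts.

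Proline is made from glutamate by ALDH18A1 and then PYCR1. PYCR1, the last step, stood at 817, 1357 and 1130.4. It was 1.66-fold higher in YA-A375 (1.53 to 1.81) and 1.38-fold higher in OA-A375 (1.26 to 1.52). ALDH18A1, the first step, went the other way and stood at 4041, 3456 and 3742. It was 1.17-fold lower in YA-A375 and 1.08-fold lower in OA-A375, inside the 1.2-fold limit but outside counting error, since the ratios to control were 0.855 (0.818 to 0.894) and 0.926 (0.885 to 0.969). ALDH18A1 was the only member of the 36 with the order control, OA-A375, YA-A375 from high to low, an order that 13.0% of all genes had. PYCR3, a paralogue of PYCR1, had log2 fold changes of 0.01 in YA-A375 and 0.29 in OA-A375.

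**Figure D3:**
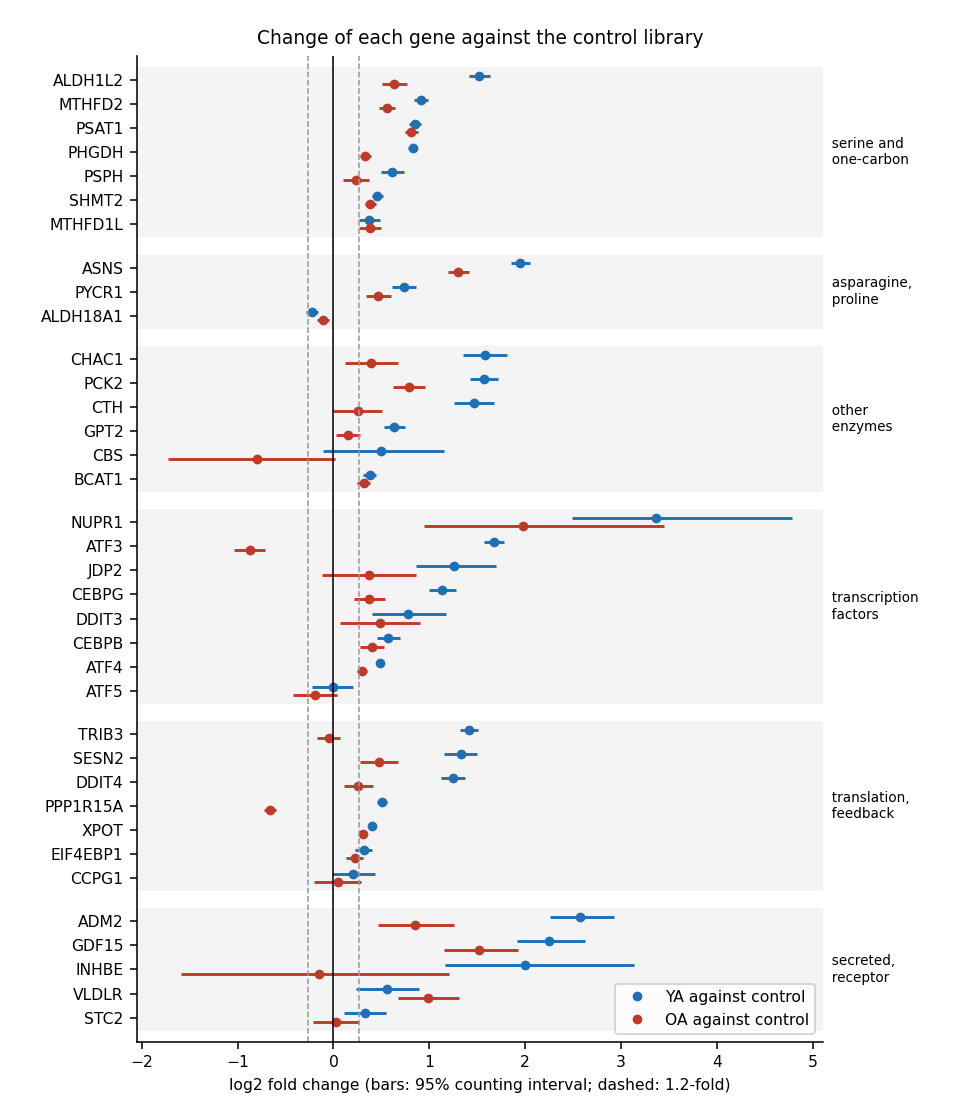
Log2 fold change of each member against control in YA-A375 (blue) and OA-A375 (red), by role, with 95% counting intervals as bars and the 1.2-fold limits dashed. ALDH18A1 is the 1 member with YA-A375 below 0 beyond its bar, and ATF3 and PPP1R15A have both points beyond their bars on opposite sides of 0.

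The 6 further enzymes of amino acid and carbon metabolism were all higher in YA-A375, where 17.4% of all genes were, with a median log2 fold change of 1.05. In OA-A375 3 were higher and 1 lower, beside 21.1% and 21.5% of all genes, with a median of 0.28. PCK2, the mitochondrial enzyme that makes phosphoenolpyruvate, stood at 474, 1407 and 816. It was 2.97-fold higher in YA-A375 (2.68 to 3.29) and 1.72-fold higher in OA-A375 (1.53 to 1.93). CHAC1, which breaks down glutathione, stood at 199 in control, 595 in YA-A375 and 262 in OA-A375. It was 2.99-fold higher in YA-A375 (2.56 to 3.52), and the OA-A375 value was 1.32-fold above control (1.09 to 1.59). CTH, which makes cysteine from cystathionine, stood at 243, 671 and 289.6. It was 2.76-fold higher in YA-A375 (2.39 to 3.20), and in OA-A375 the ratio of 1.19 had an interval of 0.999 to 1.42. CHAC1 was thus above control in both libraries and further up in YA-A375, while for CTH the OA-A375 value lay within 1.2-fold of control.

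CBS, the enzyme before CTH, had only 38, 54 and 18 counts. Its near-identical copy CBSL had 22, 70 and 18 counts, and the way reads were divided between both is uncertain. Summed, they gave a ratio of 2.07 in YA-A375 (1.51 to 2.87) and of 0.715 in OA-A375 (0.459 to 1.10) against control. GPT2, the mitochondrial alanine aminotransferase, stood at 1047, 1625 and 1162, 1.55-fold higher in YA-A375 (1.44 to 1.68). BCAT1, the cytosolic branched-chain aminotransferase, stood at 3211, 4168 and 3997, and was about equally above control in both, 1.30-fold (1.24 to 1.36) and 1.24-fold (1.19 to 1.30).

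Among the 8 transcription factors and cofactors, 7 were higher in YA-A375, where 17.4% of all genes were, with a median log2 fold change of 0.96. In OA-A375 6 were higher and ATF3 was lower, beside 21.1% and 21.5% of all genes, with a median of 0.37. These counts and medians take in NUPR1 (3.36 in YA-A375), which had to differ from control to pass the minimum. ATF4 itself, which is set mainly by translation, stood at 6393 in control, 8955 in YA-A375 and 7861 in OA-A375. It was 1.40-fold higher in YA-A375 (1.36 to 1.45) and 1.23-fold higher in OA-A375 (1.19 to 1.27). Its pseudogene ATF4P3 had 71, 74 and 92 counts, too few to alter these levels. Per length, ATF4 was the most abundant member in every library, at 522, 719.9 and 635 TPM. ATF5, a relative of ATF4 in the same pathway, stood at 348, 346 and 304, and the intervals of both ratios to control took in 1. NUP62 on the opposite strand shares 21.2% of the exonic bases of ATF5, and whether strand was used in counting was not given in the sources used here.

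CEBPG and CEBPB are dimer partners of ATF4. CEBPG stood at 549, 1209 and 712, 2.20-fold higher in YA-A375 (1.99 to 2.43) and 1.30-fold higher in OA-A375 (1.16 to 1.45). CEBPB stood at 895, 1332 and 1182, 1.49-fold (1.37 to 1.62) and 1.32-fold higher (1.21 to 1.44). DDIT3, which encodes the stress factor CHOP, had low levels of 85.7, 147 and 120.1. It was 1.72-fold higher in YA-A375 (1.32 to 2.25) and 1.40-fold higher in OA-A375 (1.05 to 1.87). DDIT3 shares 27.2% of its exonic bases with MARS on the opposite strand, which had 4864, 8001 and 6428 counts, so the DDIT3 values are uncertain.

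ATF3, a stress-induced repressor of the same bZIP family, had the widest gap between the secretomes of all members, and it lay on opposite sides of control. Its level was 949 in control, 3031 in YA-A375 and 519 in OA-A375. It was 3.19-fold higher in YA-A375 (2.97 to 3.43) and 1.83-fold lower in OA-A375, where the ratio was 0.547 (0.488 to 0.611). YA-A375 lay 5.84-fold above OA-A375 (5.30 to 6.46). JDP2, a related bZIP repressor, stood at 66.0, 159 and 85.3. It was 2.41-fold higher in YA-A375 (1.81 to 3.23), and its OA-A375 ratio of 1.29 had an interval of 0.922 to 1.82. NUPR1, a small stress-induced chromatin protein, had 8, 92 and 29 counts. Its ratios were 11.5 (5.61 to 27.5) in YA-A375 and 4.32 (1.93 to 10.9) in OA-A375, wide because the control had 8 counts.

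The 7 regulators of translation, TOR signalling and feedback had 6 higher in YA-A375, where 17.4% of all genes were, with a median log2 fold change of 0.51. In OA-A375 2 of the 7 were higher and 1 was lower, near the 21.1% and 21.5% of all genes, with a median of 0.22. TRIB3, a pseudokinase that holds ATF4 and AKT signalling in check, stood at 1154 in control, 3079 in YA-A375 and 1114 in OA-A375. YA-A375 was 2.67-fold above control (2.50 to 2.85), and the interval of the OA-A375 ratio of 0.965 (0.886 to 1.05) took in 1. SESN2, which restrains TORC1 when leucine is low, stood at 367, 921 and 511, 2.51-fold higher in YA-A375 (2.23 to 2.83) and 1.39-fold higher in OA-A375 (1.21 to 1.60). DDIT4, another TORC1 inhibitor, stood at 671, 1593 and 801, 2.38-fold higher in YA-A375 (2.17 to 2.60) and 1.19-fold higher in OA-A375 (1.08 to 1.33). The inhibitors of TORC1 were thus high in YA-A375 and, in OA-A375, nearer to control.

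PPP1R15A, also called GADD34, brings a phosphatase to eIF2 and so ends the stress signal. It stood at 5525 in control, 7851 in YA-A375 and 3499 in OA-A375. It was 1.42-fold higher in YA-A375 (1.37 to 1.47) and 1.58-fold lower in OA-A375, with a ratio of 0.633 (0.606 to 0.662). Its constitutive paralogue PPP1R15B had log2 fold changes of 0.40 and -0.04. The lower level in OA-A375 was thus seen in the inducible gene of the pair. XPOT, the exporter of transfer RNA, stood at 8164, 10747 and 10108, and EIF4EBP1, a repressor of cap-dependent translation, at 1914, 2379 and 2233. Both were higher in YA-A375 by 1.32-fold (1.28 to 1.35) and 1.24-fold (1.17 to 1.32), and XPOT in OA-A375 by 1.24-fold (1.202 to 1.28). CCPG1, a receptor for autophagy of the endoplasmic reticulum, stood at 292, 336 and 301, and the intervals of both ratios to control took in 1. It shares 38.7% of its exonic bases with the readthrough transcript DNAAF4-CCPG1, which had 0 counts in each library.

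The secreted factors with the receptor VLDLR were at low levels. All 5 genes tested were higher in YA-A375, where 17.4% of all genes were, with a median log2 fold change of 2.00. In OA-A375 3 were higher, where 21.1% of all genes were, with a median of 0.85. The first median is the value of INHBE itself, and without INHBE the medians were 1.40 and 0.92. ADM2, a peptide of the calcitonin family, stood at 84.8, 509 and 154. It was 6.01-fold higher in YA-A375 (4.80 to 7.60) and 1.81-fold higher in OA-A375 (1.38 to 2.39). GDF15, the stress hormone that acts on appetite through a brainstem receptor, stood at 75.4, 361 and 218, 4.79-fold (3.75 to 6.17) and 2.89-fold higher (2.22 to 3.80). INHBE, a subunit of activin E, had 12, 51 and 9 counts, and only the YA-A375 library was above the minimum. Its paralogue INHBA had log2 fold changes of -0.14 in YA-A375 and 0.43 in OA-A375. STC2, a glycoprotein hormone, stood at 290.2, 364 and 295, 1.25-fold higher in YA-A375 (1.08 to 1.46). FGF21, the hormone whose promoter stretch is printed above, had 0, 2 and 1 counts. All were at or under the floor of 3 counts, so no fold can be given and a difference was not detectable at this depth.

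VLDLR, the receptor that takes up triglyceride-rich lipoprotein remnants, stood apart. It was 123 in control, 182 in YA-A375 and 245 in OA-A375. The OA-A375 library was 1.98-fold above control (1.59 to 2.48) and the YA-A375 library 1.48-fold (1.18 to 1.86), and OA-A375 lay 1.34-fold above YA-A375. VLDLR was the 1 member at least 1.2-fold higher in OA-A375 than in both other libraries, where 12.6% of all genes were.

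The second question was where both secretomes differed. In YA-A375 against OA-A375, 24 of the 36 members were at least 1.2-fold higher, where 23.0% of all genes were, and 1, VLDLR, was lower, where 21.5% of all genes were. The median log2 fold change was 0.49, beside -0.01 for all genes. At least 2-fold higher were CHAC1, TRIB3, ATF3, CTH, CBS, NUPR1, PPP1R15A, ADM2 and INHBE, which is 9 members against 4.43% of all genes. Without INHBE and NUPR1 the 1.2-fold limit was passed by 22 of 34 members and the 2-fold limit by 7, with a median of 0.43. No serine or one-carbon enzyme was among the 9. In that set 4 of 7 were at least 1.2-fold higher in YA-A375 than in OA-A375, with a median of 0.35, and the highest was ALDH1L2 with 0.89. For the 7 regulators of translation and feedback the median was 0.85, and for the 6 further enzymes it was 0.98.

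Read across all 3 libraries, 24 of 36 members were at least 1.2-fold higher in YA-A375 than in both other libraries, where 9.53% of all genes were. In 14 members the steps from control to OA-A375 and from OA-A375 to YA-A375 both passed 1.2-fold, where 1.57% of all genes did. They were ASNS, PHGDH, MTHFD2, ALDH1L2, PYCR1, CHAC1, DDIT3, CEBPG, SESN2, NUPR1, GDF15, JDP2, ADM2 and PCK2. Without INHBE and NUPR1, 22 of 34 members were above both other libraries and 13 of 34 passed both steps. In 3 members YA-A375 was above and OA-A375 below control, each by at least 1.2-fold, where 2.58% of all genes were. These were ATF3, PPP1R15A and CBS, and the counting interval of CBS in OA-A375 (0.303 to 1.01) took in 1. Disregarding size, 27 of 36 members, NUPR1 among them, had the order control, OA-A375, YA-A375 from low to high, which 12.4% of all genes had.

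The neighbours of these genes in the pathway were described from lists of their own. Beside their counts stand 17.4% of all genes higher and 16.4% lower in YA-A375, and 21.1% and 21.5% in OA-A375. Of 10 amino acid transporters tested, 7 were higher in YA-A375 and 0 lower, with a median log2 fold change of 0.56, and in OA-A375 6 were higher and 4 lower, with a median of 0.36. SLC7A5 and SLC3A2, the subunits of the leucine transporter, had 0.91 and 0.90 in YA-A375 and 1.12 and 1.02 in OA-A375, so unlike most members they were not lower in OA-A375. SLC7A11, the cystine importer, had 0.91 and 0.70. SLC1A4, a carrier of alanine, serine and cysteine, was split like ATF3, at 0.50 and -0.63. Of 20 cytosolic aminoacyl-tRNA synthetases, 9 were higher in YA-A375 and 0 lower, with a median of 0.17, and 8 were higher and 1 lower in OA-A375, with a median of 0.23. AARS, listed under that older symbol, had 0.89 and 0.63, and QARS had -0.13 and -0.43.

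For each list in this paragraph, the shares of all genes were 17.4% higher and 16.4% lower in YA-A375, and 21.1% and 21.5% in OA-A375. The RNA levels of most genes listed as acting before ATF4 stayed close to control. Whether eIF2 was phosphorylated cannot be read from RNA levels. The 18 genes were eIF2 subunits, eIF2 kinases, the phosphatase gene PPP1R15B, the exchange factor and the regulators GCN1, IMPACT, NCK1, OMA1 and DELE1. PPP1R15A, the inducible phosphatase gene, is a member and was not in this list, with 0.51 in YA-A375 and -0.66 in OA-A375. Of the 18, 1 (PPP1R15B) was higher and 1 (OMA1) lower in YA-A375, with a median of -0.04. In OA-A375 2 (EIF2AK2 and EIF2B3) were higher and 1 (DELE1) was lower, with a median of 0.07. Of 17 chaperones of the endoplasmic reticulum and genes of the other arms of the unfolded protein response, 2 were higher and 2 (MANF and DNAJC3) lower in YA-A375, with a median of -0.03. In OA-A375 0 were higher and 3 (DNAJC3, CRELD2 and MANF) lower, with a median of 0.01. HSPA5, the chaperone BiP, had 18368, 18774 and 17084 counts and log2 fold changes of 0.04 and 0.15. HERPUD1 and XBP1 were higher in YA-A375, at 0.57 and 0.49. Of 8 mitochondrial chaperones and proteases, 1 (LONP1) was higher and 1 (HSPE1) lower in YA-A375, with a median of -0.02, and 3 (HSPE1, HSPA9 and LONP1) were higher in OA-A375, with a median of 0.14. Of 15 other amino acid enzymes, 2 (GOT1 and ASS1) were higher and 3 lower in YA-A375, with a median of 0.01. The intervals of the YA-A375 ratios of HSPE1 (0.535 to 1.05) and ASS1 (0.935 to 2.17) took in 1. In OA-A375 4 were higher and 4 lower, and GLUL, glutamine synthetase, had the lowest value with -1.15, from 418 counts in control to 158 in OA-A375.

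**Figure D4:**
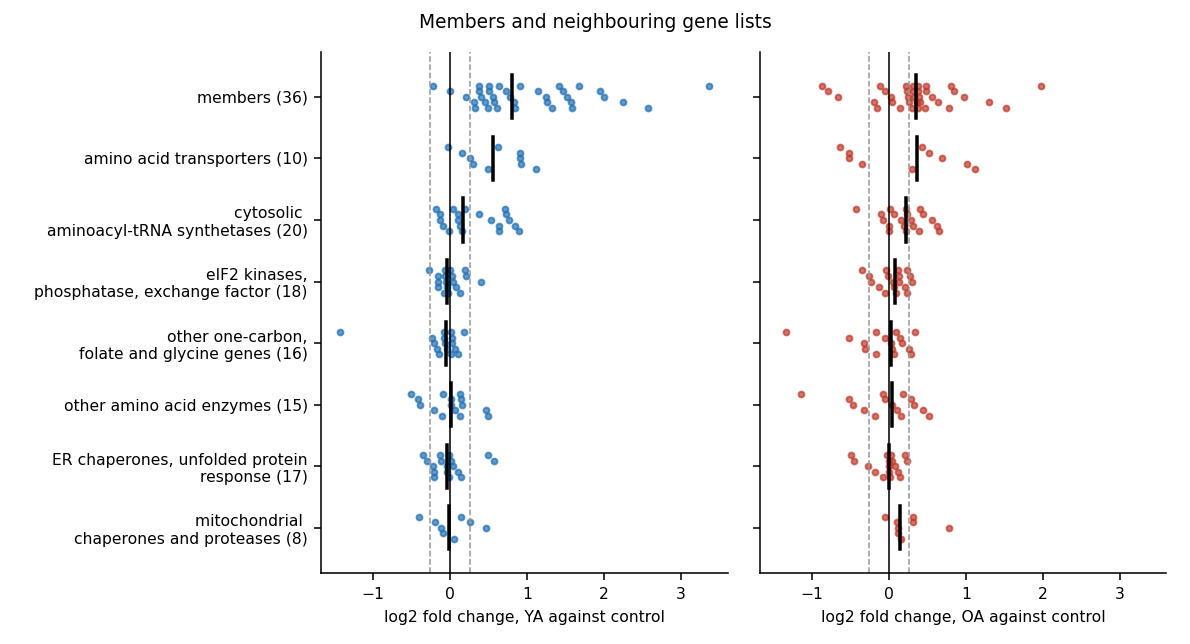
Log2 fold change against control of every gene tested in the members and in 7 neighbouring lists, in YA-A375 (left) and OA-A375 (right), with 1 point per gene, the number of genes in brackets, the list median as a black bar and the 1.2-fold limits dashed. The median bars of the members (0.80 and 0.35) and the transporters (0.56 and 0.36) lie right of the dashed line in both panels, and those of the other 6 lists lie within the limits.

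Paralogues gave a comparison within gene families. Of 23 pairs of a member with a paralogue, 16 had a paralogue that passed the minimum. In YA-A375 the member had the higher log2 fold change in 15 of these 16 pairs, and some members stand in more than 1 pair. The exception was CEBPB (0.57) with CEBPD (1.15). INHBE with INHBA is among the 15, and INHBE passed the minimum only through its YA-A375 value. Members were chosen with earlier results of these data known, so the count is a description and no test. In OA-A375 the member was below its paralogue for INHBE, TRIB3 with TRIB1, PPP1R15A, STC2 and CEBPB with CEBPD. Of the 16 paralogues in these pairs 2 were at least 1.2-fold higher in YA-A375, CEBPD and PPP1R15B, and 3 were lower, TRIB2, STC1 and EIF4EBP2. The shares of all genes were 17.4% and 16.4%. In OA-A375 7 of the paralogues were higher and 3 lower, beside 21.1% and 21.5% of all genes. Further relatives that were not set in pairs were the bZIP genes FOSB and FOS and the inhibin gene INHA. FOSB had 3695, 10053 and 902 counts, with log2 fold changes of 1.45 in YA-A375 and -1.78 in OA-A375, on opposite sides of control like ATF3. FOS had -0.10 and -1.25, and INHA, with 24, 42 and 25 counts, had 0.79 and 0.30. CHAC2, a glutathione-degrading relative of CHAC1, had 210, 195 and 213 counts, which is a log2 fold change of -0.10 in YA-A375 where CHAC1 had 1.58. TRIB2 had -0.82 in YA-A375 and -0.76 in OA-A375, beside 1.41 and -0.05 for TRIB3. SESN3 had 0.01 and -0.84, beside 1.33 and 0.48 for SESN2. MTHFD2L, the relative of MTHFD2, had 154, 161 and 158 counts. The paralogues DDIT4L and PCK1 had 1 count or fewer in each library.

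**Figure D5:**
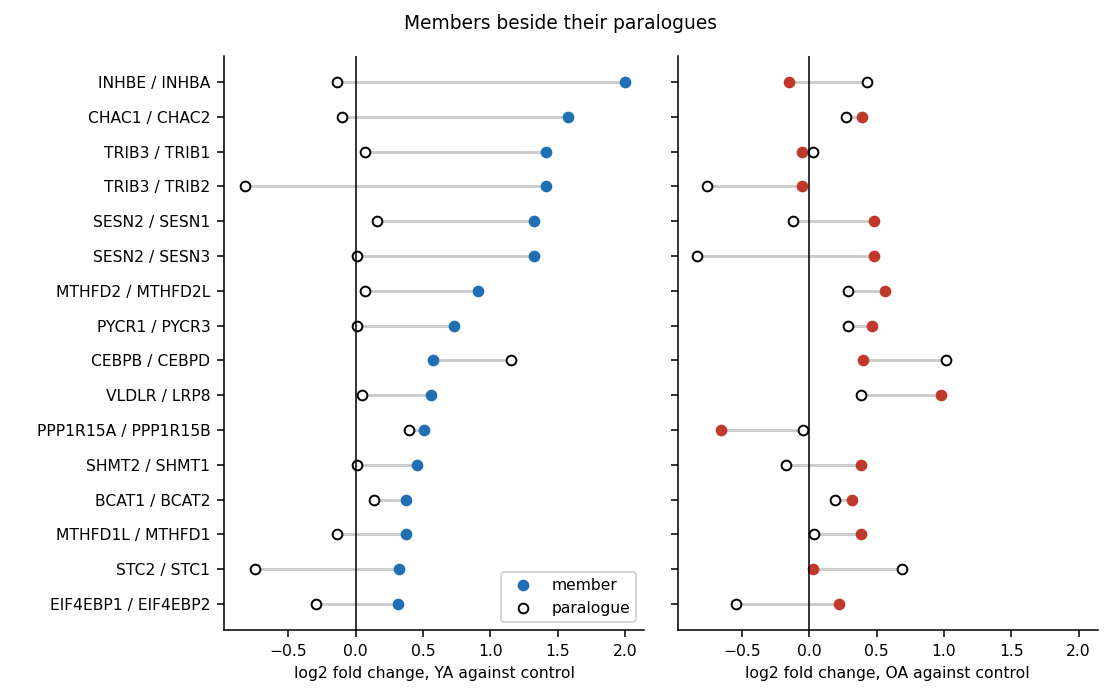
Log2 fold change against control of members (filled) and their paralogues (open) in the 16 pairs whose paralogue passed the minimum, in YA-A375 (left) and OA-A375 (right). In the left panel the filled point lies right of the open one in every row but CEBPB with CEBPD, and in the right panel INHBE, TRIB3 with TRIB1, PPP1R15A, STC2 and CEBPB lie left of their paralogue.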

How the data were processed

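Poly(A) RNA of A375 cells was measured in 3 libraries. The authors deposited whole-number counts per gene, not normalised, for 58037 genes. The submitters' processing notes name hg38, STAR 2.5.1b, featureCounts and R 3.6.1. The annotation release, the use of strand and the treatment of multiply mapping reads were not given in the sources used here, which leaves overlapping genes and near-identical copies uncertain. The exposure is given as 24 h, while a protocol shared by the samples allows longer times.

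Normalised counts are counts over the DESeq2 1.42.0 size factors (R 4.3.3) of 1.06 for control, 1.06 for YA and 0.891 for OA, by median of ratios. Log2 fold changes were log2((a + 1)/(b + 1)) of normalised counts over the 14413 genes with a mean of at least 20. Folds in the text are plain ratios of normalised counts with 95% Clopper-Pearson intervals, and shares have 95% Wilson intervals. The libraries carried no stated molecular identifiers and reads were amplified, so the intervals, like the floor of 3 counts, speak of counting error alone. With 1 library per group no p-value was computed. The limit of 1.2-fold is the cutoff in the study's methods, read as a linear fold. TPM used exonic lengths of GENCODE release 29 on GRCh38, where 57433 identifiers matched. Promoter windows came from RefSeq on GRCh38.p14. Scripts ran in Python 3.11.15 (scipy 1.17.1, pandas 2.3.3, numpy 2.4.6, matplotlib 3.10.9), and the steps were tested on simulated counts.

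The members and all lists were chosen with earlier results of these data known. Every member is named. From each other list the rule took up to 3 tested genes with the largest change in each secretome, near-identical copies and overlapping genes, and not all of these are printed. Genes named outside it, after their values were seen, are HSPA5, SLC1A4, QARS, GPT, LUM, GPD1, PDGFRB, GCN1, IMPACT, NCK1, INHA, most paralogues and the markers at low counts. 1 pair of paralogues and some list genes are not reported here. As alternatives, scaling by total counts or by TMM (edgeR 4.0.16) was tried, as were size factors from nuclear protein-coding genes, no minimum, a minimum of 100, a pseudocount of 5, other limits, means, and a correction for exonic length and GC content.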

Additional observations from a re-analysis of the deposited data

Results flagged for a closer look

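ATF3 and PPP1R15A were singled out because the YA-A375 library lay above and the OA-A375 library below the shared control, each beyond its counting interval. The YA-A375 over OA-A375 log2 difference was 2.54 for ATF3 and 1.17 for PPP1R15A. Of the genes in the other lists, SLC1A4 (1.13), FOSB (3.23) and LPL (3.99) stood the same way, past 1.2-fold on both sides, and STC1 (-1.44) the opposite way, with OA-A375 above and YA-A375 below control. With 1 library per group, the difference between the secretomes was not tested.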

How the results depend on the processing

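With 1 library per group no replicate could be left out, and no paired analysis was possible because each group had 1 library. Of 747 log2 fold changes of single members under other scalings, minimums, a pseudocount of 5 or a length and GC correction, 735 stayed within their counting interval, 12 left it, all under the length and GC correction, and 0 changed sign while called. The 1.2-fold limit was crossed by 3 of them: ATF4 in OA-A375 (0.25) and STC2 in YA-A375 against OA-A375 under that correction, and PYCR1 in YA-A375 against OA-A375 with the pseudocount of 5. The counts of members moved mainly with the limit. The share of all genes follows each count in brackets. In YA-A375 15 members were higher at 2-fold (2.15%) and 14 with the cutoff read as a log2 value (1.21%). In OA-A375 8 were higher at 1.5-fold (7.56%), 3 at 2-fold (2.86%) and 3 with the log2 reading (1.96%). There 0 were lower at 2-fold (3.71%) or with the log2 reading (2.79%). In YA-A375 against OA-A375 9 were higher at 2-fold (4.43%) and 7 with the log2 reading (3.06%). There 0 were lower at 1.5-fold (7.67%), at 2-fold (3.04%), with the log2 reading (2.11%) or with the counting interval beyond 1.2-fold (9.03%). A mean in place of the median gave 1.01 in YA-A375 and 0.66 in YA-A375 against OA-A375, and a minimum of 100 counts, with 33 members, gave a median of 0.37 in the latter. Depth limits the genes under about 100 counts, CBS, NUPR1, INHBE and FGF21 among them.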

Other observations

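The TGATGNAA core was also counted in the promoter windows of genes outside the members. Of 272 tested genes with a window that held it, 20.2% were at least 1.2-fold higher in YA-A375 and 20.2% at least 1.2-fold lower, with a median log2 fold change of -0.03. Of 9733 tested genes whose windows lacked it, 14.7% were higher and 14.2% lower, with a median of -0.02. In OA-A375 the shares were 22.8% higher and 25.4% lower with the core, and 19.3% and 19.96% without it. Both the higher and the lower share were thus larger among genes with the core, a difference that was not tested.

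ASNSP1, an unprocessed pseudogene of ASNS, had 9 counts in control, 50 in YA-A375 and 5 in OA-A375, and XPOTP1, a pseudogene of XPOT, had 29, 61 and 40. GPT, the cytosolic relative of GPT2, had 8, 26 and 9 counts. All 3 were highest in YA-A375, at counts of 61 or fewer.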
